A study of Pinctada fucata with 3 samples.

Results

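The genes described here stood on opposite sides of the control library in mantle RNA of Pinctada fucata, a pearl oyster: higher after one double-stranded RNA (dsRNA) of the NF-κB pathway and lower after the other. They were chosen from the measured values, as genes averaging 1 FPKM or more (fragments per kilobase of transcript and per 1000000 fragments mapped) across the 3 libraries whose level was at least 2-fold above the control library in one knockdown library and at least 2-fold below it in the other, on the scale of FPKM + 1. Of 33072 genes listed, 20728 had that mean and 73 met the rule. In 35 of them the level was higher with Rel dsRNA and lower with IκB dsRNA, and in 38 it was higher with IκB dsRNA and lower with Rel dsRNA.

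The study asked how NF-κB signalling acts on biomineralization. Adult oysters received 30 μg of dsRNA in the adductor muscle, 5 oysters per group, and mantle was sampled from every oyster 7 days later. The first group received dsRNA against Pf-Rel, the second dsRNA against poI-κB (the IκB of this oyster), and the third dsRNA against GFP, a jellyfish protein whose gene oysters lack. All groups, the control included, therefore received a dsRNA injection. Each group is 1 library, so every value below is a single measurement without a replicate error, no test between groups was possible, and no p-value is given. That the pieces of 1 group were combined is implied by the single library and is not stated in the labels. The number of reads behind each value is unknown from FPKM.

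Rel proteins are transcription factors of the NF-κB family. IκB proteins bind such factors and keep them in the cytoplasm until a signal, such as a microbe sensed by a Toll-like receptor, leads to the breakdown of IκB. Loss of Rel removes an activator of target genes, and loss of IκB removes its inhibitor, so in this scheme a gene activated by Rel is lower than in controls after loss of Rel and higher after loss of IκB. The mantle is the organ that secretes the shell. The deposited identifiers carry no gene names and no annotation was used, so the identity of the 73 genes, their functions and their sequences are not given, and the levels of the targeted Rel and IκB transcripts, of cell type markers and of shell proteins were not analysed here.

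The 38 genes higher with IκB dsRNA and lower with Rel dsRNA made up 0.183% of the genes compared, and the 35 genes of the reverse direction made up 0.169%. Because the rule picked the genes on these same ratios, the counts are a description. For background, 20.5% of all genes compared were higher by 2-fold or more, and 18.1% lower by as much, with Rel than with GFP dsRNA. With IκB dsRNA, 19% were higher than with GFP dsRNA by 2-fold or more and 18.1% were lower by as much. The opposite genes were thus a small part of each list: the 35 genes were 0.824% of the 4249 genes higher with Rel dsRNA and 0.933% of the 3752 genes lower with IκB dsRNA, and the 38 genes were 0.964% of the 3941 genes higher with IκB dsRNA and 1.01% of the 3747 genes lower with Rel dsRNA. Both ratios use the same GFP dsRNA library, so an unusual value in that library moves them the same way.

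**Figure D1:**
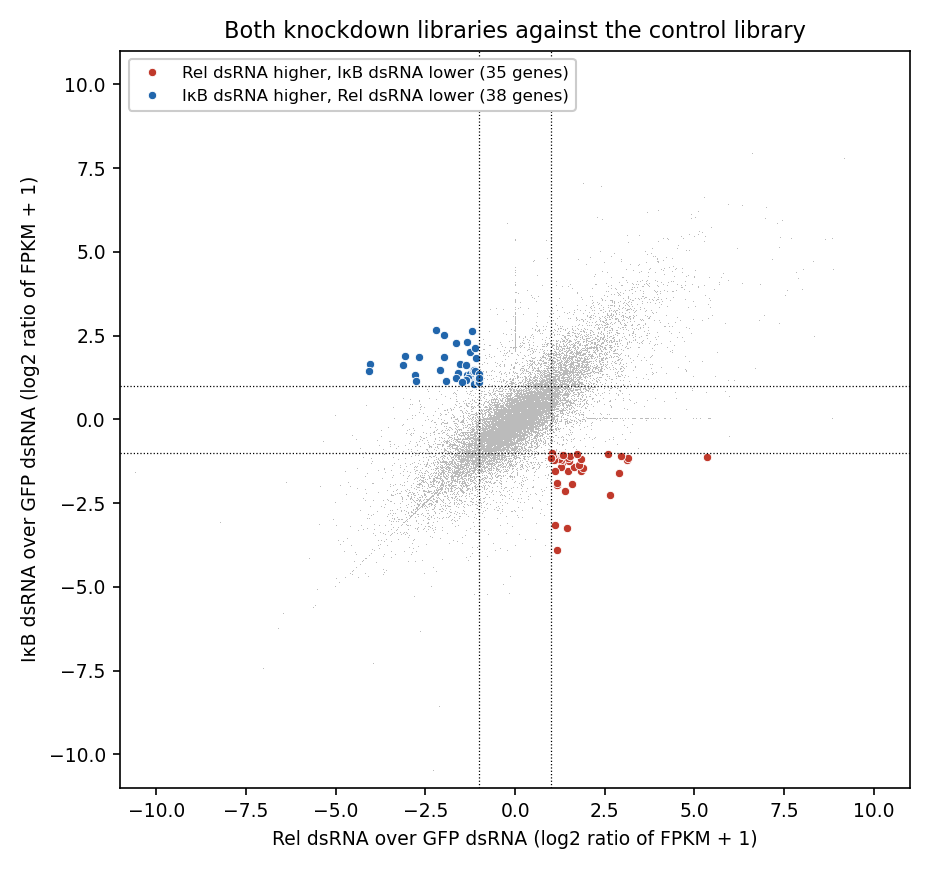
Each point is 1 of 20728 genes, with the log2 ratio of Rel over GFP dsRNA on the x axis and of IκB over GFP dsRNA on the y axis, both on the FPKM + 1 scale; dotted lines mark 2-fold. The 38 genes higher with IκB dsRNA lie in the upper left corner and the 35 genes higher with Rel dsRNA in the lower right, most of them close to the corner of the dotted lines.

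In the direction higher with IκB dsRNA and lower with Rel dsRNA, the levels spanned low and middle values. The 38 genes ranged from 0 to 5.17 FPKM with Rel dsRNA, with a median of 0. They ranged from 3.75 to 82.1 FPKM with IκB dsRNA, with a median of 9.53. With GFP dsRNA they ranged from 1.01 to 29.9 FPKM, with a median of 2.90. Of the 38, 10 (26.3%) reached 20 FPKM in a library, compared with 24.6% of all genes compared, and 0 reached 100 FPKM, compared with 6.83%. The log2 ratios ran between -4.08 and -1.01 for Rel over GFP dsRNA (median -1.35) and between 1.05 and 2.66 for IκB over GFP dsRNA (median 1.43). The larger of the 2 ratios was the one with Rel dsRNA in 20 genes (52.6%, compared with 52.1% of all genes compared) and the one with IκB dsRNA in 18 (47.4%, compared with 47.0%).

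The gene of this direction whose smaller ratio was largest was pfu_aug2.0_1550.1_01699. It was listed at 0 with Rel dsRNA, at 28.5 FPKM with IκB dsRNA and at 3.65 FPKM with GFP dsRNA. It was the single gene of the 38 at least 4-fold from the control on both sides, with log2 ratios of FPKM + 1 of -2.22 for Rel over GFP dsRNA and 2.66 for IκB over GFP dsRNA. The value of -2.22 depends on the pseudocount, since the Rel dsRNA library is listed at 0, and is not a measured fold. The 3 genes that precede it in the order of identifiers and share its middle number did not follow it: with Rel dsRNA they stood at 11.6, 15.1 and 1.35 FPKM, with IκB dsRNA at 9.82, 4.78 and 0.19 FPKM, and with GFP dsRNA at 4.05, 0.22 and 0 FPKM. Each of those neighbours was thus highest with Rel dsRNA, the library in which pfu_aug2.0_1550.1_01699 was listed at 0.

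The most abundant gene of this direction above 0 in all 3 libraries was BGI_novel_G006128. It was at 0.82 FPKM with Rel dsRNA, 82.1 FPKM with IκB dsRNA and 29.9 FPKM with GFP dsRNA. The IκB dsRNA library was 100.1 times as high as the Rel dsRNA library without a pseudocount, and most of that distance lay between the Rel and GFP dsRNA libraries, with log2 ratios of FPKM + 1 of -4.08 for Rel over GFP dsRNA and 1.43 for IκB over GFP dsRNA. By level it ranked 21132nd of 33072 genes with Rel dsRNA, 1129th with IκB dsRNA and 2811th with GFP dsRNA. The next identifier in the file's numbering was at 292.6 FPKM with Rel dsRNA, 211.3 FPKM with IκB dsRNA and 49.9 FPKM with GFP dsRNA, higher in both knockdown libraries than in the control library. The identifier before it was listed at 0 in both knockdown libraries and at 4.26 FPKM with GFP dsRNA.

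The second gene of this direction by level with IκB dsRNA was at 1.49 FPKM with Rel dsRNA, 55.9 FPKM with IκB dsRNA and 14.8 FPKM with GFP dsRNA. The third was listed at 0 with Rel dsRNA and stood at 50.5 FPKM with IκB dsRNA and 15.6 FPKM with GFP dsRNA. The fourth, at 5.17 FPKM with Rel dsRNA, 48.2 FPKM with IκB dsRNA and 15.0 FPKM with GFP dsRNA, was the highest of the 38 with Rel dsRNA. Unlike the second and the third, its larger log2 ratio was the one with IκB dsRNA, at 1.62, beside -1.38 for Rel over GFP dsRNA. The 3 highest held 28.8% of the summed FPKM of the 38 in the IκB dsRNA library.

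In the reverse direction (higher with Rel dsRNA, lower with IκB dsRNA), 3 genes (8.57%) reached 100 FPKM in a library, compared with 6.83% of all genes compared. The 35 genes ranged from 3.37 to 325.1 FPKM with Rel dsRNA, with a median of 10.6. They ranged from 0 to 39.2 FPKM with IκB dsRNA, with a median of 0. With GFP dsRNA they ranged from 1.10 to 90.9 FPKM, with a median of 2.76. Log2 ratios ran between 1.01 and 5.34 for Rel over GFP dsRNA (median 1.47) and between -3.89 and -1.02 for IκB over GFP dsRNA (median -1.24). Here the larger ratio was the one with Rel dsRNA in 21 genes (60%, compared with 52.1% of all genes compared) and the one with IκB dsRNA in 14 (40%, compared with 47.0%). The 3 genes above 100 FPKM with Rel dsRNA held 58.2% of the summed FPKM of the 35 in that library.

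The gene of this direction whose smaller ratio was largest was BGI_novel_G000545. It was at 28.9 FPKM with Rel dsRNA, listed at 0 with IκB dsRNA and at 3.82 FPKM with GFP dsRNA. It was the single gene of the 35 at least 4-fold from the control on both sides, with a log2 ratio of FPKM + 1 of 2.63 for Rel over GFP dsRNA and of -2.27 for IκB over GFP dsRNA, the second again set by the pseudocount. Its values are close to a mirror image of those of pfu_aug2.0_1550.1_01699, with the knockdown libraries exchanged. The identifiers up to 3 numbers before it were also lower with IκB than with GFP dsRNA, with log2 ratios of -1.37, -1.37 and -1.64. Unlike it, they were below the control with Rel dsRNA too, at -0.46, -0.46 and -0.51. The identifiers 3 and 2 numbers before it had identical values in all 3 libraries. The identifiers 1 and 2 numbers after it were above the control in both knockdown libraries, at 0.43 and 0.98 with Rel and 0.58 and 0.79 with IκB dsRNA. That 3 numbers after was below the control in both, at -0.30 with Rel and -0.41 with IκB dsRNA.

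The most abundant gene of the reverse direction, and of all 73, was BGI_novel_G011139. It was at 325.1 FPKM with Rel dsRNA, 39.2 FPKM with IκB dsRNA and 90.9 FPKM with GFP dsRNA. The Rel dsRNA library was 8.29 times as high as the IκB dsRNA library, and the log2 ratios of FPKM + 1 were 1.83 for Rel over GFP dsRNA and -1.19 for IκB over GFP dsRNA. It ranked 376th of 33072 genes with Rel dsRNA, 2100th with IκB dsRNA and 1101st with GFP dsRNA, so it was well above the lowest values in each library. The identifiers numbered just before and just after it were far lower, and both were lower in the knockdown libraries than in the control library. The one before was listed at 0 in both knockdown libraries and at 3.20 FPKM with GFP dsRNA, and the one after was at 2.88 FPKM with Rel dsRNA, 4.91 FPKM with IκB dsRNA and 9.68 FPKM with GFP dsRNA. Those 2 and 3 numbers after it were higher with Rel than with GFP dsRNA, with log2 ratios of 1.43 and 1.19. For IκB over GFP dsRNA they were at 0.19 and 0.21. The identifier 2 numbers before was higher in both knockdown libraries, at 2.37 and 2.91, and that 3 numbers before was near the control, at 0.19 and -0.03.

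The second gene by level with Rel dsRNA was at 186.1 FPKM with Rel dsRNA, 1.11 FPKM with IκB dsRNA and 3.61 FPKM with GFP dsRNA. This was the widest ratio to the control in either direction, 5.34 on the log2 scale of FPKM + 1 for Rel over GFP dsRNA, beside -1.13 for IκB over GFP dsRNA. The third gene stood at 120.5 FPKM with Rel dsRNA, 9.61 FPKM with IκB dsRNA and 39.8 FPKM with GFP dsRNA, and its log2 ratios of 1.57 and -1.94 were of similar size. The fourth stood at 63.1 FPKM with Rel dsRNA, 4.22 FPKM with IκB dsRNA and 9.71 FPKM with GFP dsRNA. These genes had levels above 0 in all 3 libraries.

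**Figure D2:**
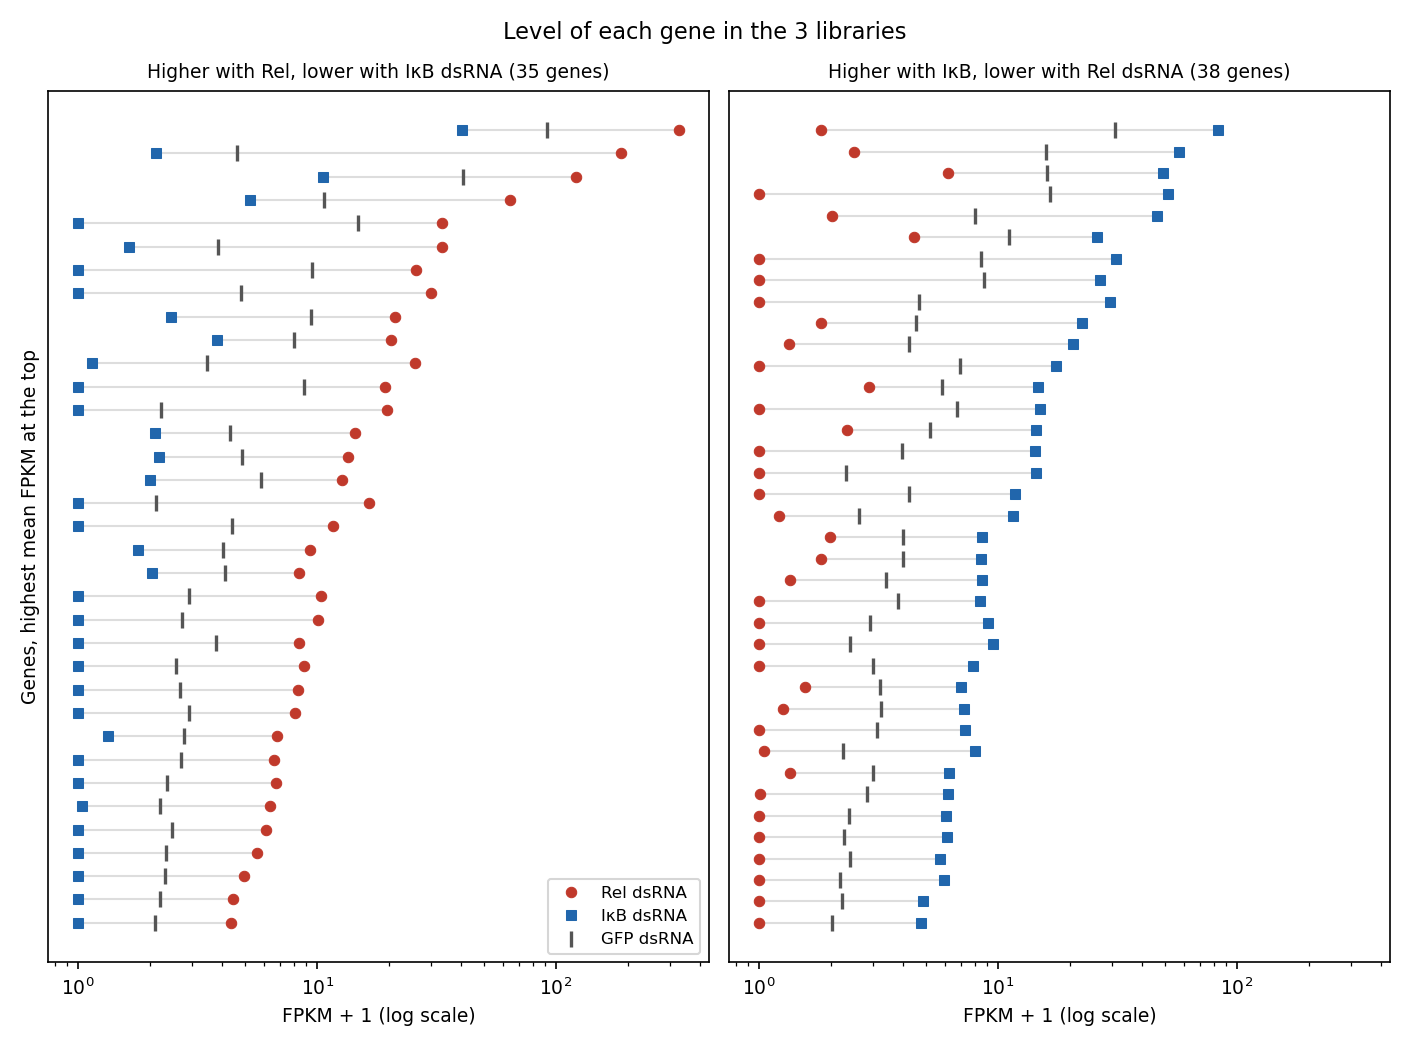
Each row is 1 gene, ordered by mean FPKM, with its FPKM + 1 in the Rel (circle), IκB (square) and GFP (bar) dsRNA libraries on a log scale; a value of 1 means listed at 0. The 35 genes on the left reach 325.1 FPKM with Rel dsRNA, and the 38 on the right reach 82.1 FPKM with IκB dsRNA; 20 genes on each side sit at 0 in the lower library.

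The median position of the control value was near the middle of the knockdown values. On the log2 scale of FPKM + 1, with 0 at the lower knockdown library and 1 at the higher, the GFP dsRNA library lay at a median of 0.502 for the 38 genes higher with IκB dsRNA (0.312 to 0.741). For the 35 genes higher with Rel dsRNA the median was 0.465 (0.174 to 0.769). The rule keeps the control 2-fold away from both ends, which itself pulls this position towards the middle.

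Many of the opposite genes had a 0. Of the 38 genes, 20 were listed at 0 with Rel dsRNA, and of the 35 genes, 20 were listed at 0 with IκB dsRNA. Among all genes compared, whether lower in that library or not, 2.98% were listed at 0 with Rel dsRNA and 2.75% with IκB dsRNA. Part of this follows from the rule: a gene below 3 FPKM with GFP dsRNA can meet it only below 1 FPKM in the lower knockdown library, and 20 of the 38 and 19 of the 35 genes were below 3 FPKM with GFP dsRNA. The 20 genes at 0 with Rel dsRNA stood at 3.75 to 50.5 FPKM with IκB dsRNA (median 8.30), and 9 of them were at 10 FPKM or more there. The 20 genes at 0 with IκB dsRNA stood at 3.37 to 32.4 FPKM with Rel dsRNA (median 7.62), and 7 of them were at 10 FPKM or more. Among all genes compared, 39 were at 0 with Rel dsRNA and at 10 FPKM or more with IκB dsRNA. For 50 genes it was the reverse, at 0 with IκB dsRNA and at 10 FPKM or more with Rel dsRNA. No gene of either direction was at 0 or below 1 FPKM with GFP dsRNA, as the rule requires.

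Set among all genes that were at 1 FPKM or more with GFP dsRNA and at 0 in a given knockdown library, the opposite pattern made up a small part. Of 456 such genes at 0 with Rel dsRNA, 20 were at least 2-fold higher with IκB than with GFP dsRNA, 261 were at least 2-fold lower and 175 were within 2-fold. Of 441 such genes at 0 with IκB dsRNA, 20 were at least 2-fold higher with Rel than with GFP dsRNA, 256 were at least 2-fold lower and 165 were within 2-fold. In both cases 140 genes were at 0 in both knockdown libraries. They are counted among the genes at least 2-fold lower, since a 0 there puts them so, and they lower the medians that follow. The median log2 ratio of FPKM + 1 in the other knockdown library was -1.36 for the genes at 0 with Rel dsRNA and -1.37 for those at 0 with IκB dsRNA.

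The remaining 33 genes were above 0 in all 3 libraries, so that their folds can be read without a pseudocount. For 18 genes higher with IκB dsRNA, the IκB dsRNA library was 7.20 to 519 times as high as the Rel dsRNA library, with a median of 22.7. For 15 genes higher with Rel dsRNA, the Rel dsRNA library was 6.84 to 176.9 times as high as the IκB dsRNA library, with a median of 12.5. The widest ratio of each direction rests on a value below 1 FPKM, 0.01 FPKM in the Rel dsRNA library for the 18 and 0.14 FPKM in the IκB dsRNA library for the 15. Low values were not limited to these. Counting the 20 genes at 0, 32 of the 38 were below 1 FPKM with Rel dsRNA, compared with 9.10% of all genes compared. Counted likewise, 26 of the 35 were below 1 FPKM with IκB dsRNA, compared with 9.34%. Those background shares include genes that were not lower in the library concerned. The rule itself requires a value below 1 FPKM there for genes below 3 FPKM with GFP dsRNA. The median of 22.7 falls between genes at 0.35 and 0.26 FPKM with Rel dsRNA, so it also rests on low values.

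The opposite genes are by construction at least 4-fold apart between the knockdown libraries, on the scale of FPKM + 1. In all, 479 genes (2.31%) were at least 4-fold lower with Rel than with IκB dsRNA, and 469 genes (2.26%) were at least 4-fold higher. The GFP dsRNA library lay between the knockdown libraries and 2-fold from each in 7.93% of the 479 and 7.46% of the 469, which are the 38 and 35 genes. It lay between them but within 2-fold of the lower library in 197 and 158 genes. It lay between them and within 2-fold of the higher library in 76 and 87 genes. The control library was above both in 87 and 73 genes and below both in 81 and 116 genes.

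**Figure D3:**
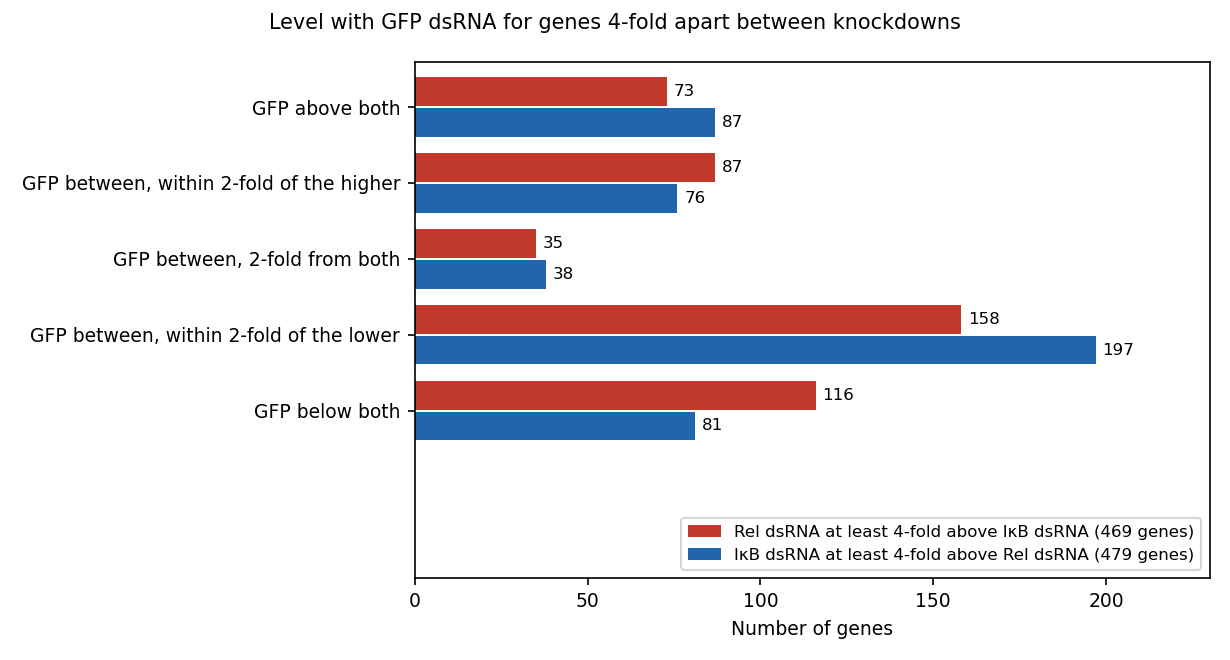
Bars count the genes at least 4-fold apart between the knockdown libraries (FPKM + 1 scale) by where the GFP dsRNA library lies, for 469 genes higher with Rel dsRNA (upper bar of each pair) and 479 higher with IκB dsRNA (lower bar). The genes described here are the middle pair, 35 and 38; the longest bars, 158 and 197, are genes whose control level was within 2-fold of the lower library.

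Opposite genes were found at low, middle and high levels. They were 0.140% of the 4284 genes whose mean was from 1 to below 2 FPKM, where the rule leaves little room, 0.550% of the 6181 genes at 2 to below 5 FPKM, and 0.391% of the 3833 genes at 5 to below 10 FPKM. Their share was 0.325% of the 4611 genes at 10 to below 50 FPKM and 0.165% of the 1819 genes averaging at least 50 FPKM. Within that group, 3 genes were higher with Rel dsRNA and 0 higher with IκB dsRNA. The share of genes at least 2-fold on the same side of the control in both knockdown libraries was 19.4% in the lowest group and 38.2% in the highest.

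The identifiers are of 2 kinds. Of the 38 genes higher with IκB dsRNA, 17 (44.7%) had a pfu_aug2.0 identifier, and the others a BGI_novel one. Of the 35 genes higher with Rel dsRNA, 9 (25.7%) had a pfu_aug2.0 identifier. The share was 49.0% among all genes compared, 49.3% among genes at least 2-fold higher with Rel than with GFP dsRNA, and 45.5% among genes at least 2-fold lower with IκB than with GFP dsRNA. For the direction higher with Rel dsRNA it varied with processing, from 50 of 128 genes at a pseudocount of 0.1 FPKM to 0 of 3 at 5 FPKM. It was 13 of 42 on the TPM scale, 8 of 33 after median-ratio scaling and 8 of 32 after upper-quartile scaling, choices described below. The 26 pfu_aug2.0 identifiers all had different middle numbers, so none shared that number with another gene of the set. None of the 73 genes had the same 3 values as another gene, and 3.99% of all genes compared did. With so low a background share, this does not set the 73 genes apart.

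Near-identical copies can exchange reads, and the counting of such reads is not given in the sources used here, so neighbouring identifiers were looked at for changes of the other sign. Of the 38 genes lower with Rel dsRNA, 29 (76.3%) had a neighbour within 3 identifier numbers that was at least 2-fold higher with Rel than with GFP dsRNA, compared with 49.3% of all genes lower with Rel dsRNA. For their higher level with IκB dsRNA, 12 of the 38 (31.6%) had a neighbour at least 2-fold lower with IκB than with GFP dsRNA, compared with 44.9%. Of the 35 genes higher with Rel dsRNA, 18 (51.4%) had a neighbour lower with Rel dsRNA, compared with 44.5%, and 17 (48.6%) had a neighbour higher with IκB dsRNA, compared with 45.9%. Between the knockdown libraries themselves, a neighbour at least 4-fold apart the other way stood beside 7 of the 38 (18.4%, compared with 16.9%) and 2 of the 35 (5.71%, compared with 18.1%). These shares lay on both sides of the background. Identifier numbers do not show whether neighbours are similar in sequence, so an exchange of reads between copies was not tested. One pair of genes in the set had identifiers 3 numbers apart and opposite directions: the first was at 10.6 FPKM with Rel dsRNA, listed at 0 with IκB dsRNA and at 3.41 FPKM with GFP dsRNA, and the second was listed at 0 with Rel dsRNA, at 30.2 FPKM with IκB dsRNA and at 7.45 FPKM with GFP dsRNA. That pair was singled out after its values were seen, and whether its genes are copies of each other was not tested.

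Most of the 73 genes lay near the threshold. At 1.5-fold each way, 152 genes were higher with IκB and lower with Rel dsRNA and 183 the reverse. At 3-fold each way, 8 and 2 genes were left, and at 4-fold 1 and 1. The gene just inside the rule on the IκB side was listed at 0 with Rel dsRNA and stood at 3.75 FPKM with IκB dsRNA and 1.01 FPKM with GFP dsRNA. The gene just outside it was at 2.25 FPKM with Rel dsRNA, 12.6 FPKM with IκB dsRNA and 5.44 FPKM with GFP dsRNA. On the Rel side the gene just inside was at 3.44 FPKM with Rel dsRNA, listed at 0 with IκB dsRNA and at 1.21 FPKM with GFP dsRNA. Just outside was a gene at 5.23 FPKM with Rel dsRNA, listed at 0 with IκB dsRNA and at 2.12 FPKM with GFP dsRNA.

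The balance between the directions turned under 1 of 3 scalings of the libraries. The 35 genes higher with Rel and 38 higher with IκB dsRNA became 42 and 30 when each library was rescaled to the same total (TPM scale), 33 and 40 after median-ratio scaling, and 32 and 43 after upper-quartile scaling. The TPM scale also raised the median log2 ratio of all genes for Rel over GFP dsRNA, to 0.19, against 0.01 on the deposited scale. Under all 3 of these scalings, 30 of the 38 and 26 of the 35 genes met the rule. With a pseudocount of 5 FPKM, which gives less weight to low values, 6 genes higher with IκB dsRNA and 3 higher with Rel dsRNA met it. The same 6 and 3 also met it under the 3 scalings. They met it at a pseudocount of 0.1 FPKM too, as any gene passing at 5 FPKM must. Under every alternative run, which adds the 3-fold threshold, the mean of at least 5 FPKM and levels above 0 in all 3 libraries, 2 of the 38 and 0 of the 35 genes met it. Those 2 were the second gene by level with IκB dsRNA, given above, and the fifth, at 1.02 FPKM with Rel dsRNA, 45.5 FPKM with IκB dsRNA and 7.04 FPKM with GFP dsRNA.

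**Figure D4:**
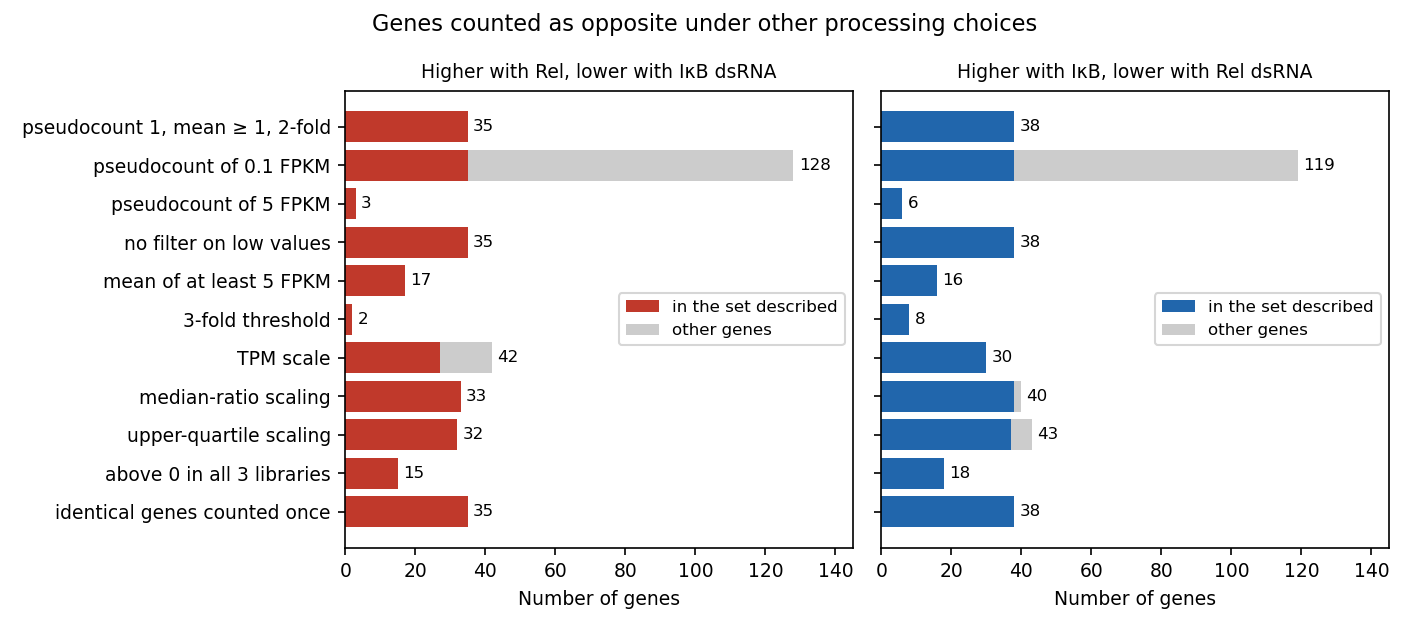
Bars count the genes meeting the rule under each processing choice, higher with Rel dsRNA and lower with IκB dsRNA on the left and the reverse on the right, with the coloured part being genes of the 35 and 38 and the grey part other genes. A pseudocount of 0.1 FPKM gave 128 and 119 genes, and one of 5 FPKM gave 3 and 6.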

How the data were processed

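RNA of mantle from 3 groups of oysters was sequenced, 1 library per group. The authors deposited 1 table of FPKM values, rounded to 2 decimals, for 33072 genes. HISAT, Bowtie2 and RSEM appear in the submitters' processing notes, with no version or role. Neither a genome build nor an annotation is given in the sources used here. Per the labels' protocols, RNA was prepared by poly(A) capture or by removal of ribosomal RNA, and which applied to which library is not stated.

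Columns were matched to libraries by name. Genes averaging 1 FPKM or more over the 3 libraries entered, log2 ratios of FPKM + 1 were taken, and genes at or past 2-fold in opposite directions were kept (Python 3.11.15, pandas 2.3.3). The members and lists were chosen with earlier results of these data known. By rule, 2 identifiers per direction are named: the one whose smaller ratio is largest, and the one with the highest mean FPKM among genes above 0 in all 3 libraries. The planned gene lists and cell type markers could not be applied without names. The selection code was run on simulated libraries without noise, in which well-expressed genes were moved well past the threshold. That checks the code only and does not show how the rule performs on low or noisy values. Alternatives were pseudocounts of 0.1 and 5, no filter, a mean of at least 5 FPKM, 3-fold, 3 scalings, genes above 0 only, and genes of identical values counted once. FPKM summed to 1006661 with Rel dsRNA, 1126540 with IκB dsRNA and 1166698 with GFP dsRNA.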

Additional observations from a re-analysis of the deposited data

How the results depend on the processing

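In the order higher with Rel dsRNA and lower with IκB dsRNA, then the reverse, the 35 and 38 genes became 128 and 119 with a pseudocount of 0.1 FPKM, and 3 and 6 with one of 5 FPKM. A mean of at least 5 FPKM gave 17 and 16, 3-fold gave 2 and 8, and genes above 0 in all 3 libraries gave 15 and 18; fewer genes can pass under these choices. All 73 genes were among those found at a pseudocount of 0.1 FPKM, which had to be so, since a smaller pseudocount widens every ratio. The scalings, dropping the filter and counting genes of identical values once kept both counts within 1.5 times; without the filter they were the same 35 and 38, since the rule itself requires more than that mean. On the TPM scale the median log2 ratio of all genes went from 0.01 to 0.19 for Rel over GFP dsRNA and from 0.03 to 0.17 for Rel over IκB dsRNA, and the rule kept 27 of the 35 and 30 of the 38 genes. For the 4 named genes, a pseudocount cannot change the sign of a log2 ratio. No sign changed under the 3 scalings either, for ratios that the rule already put past 2-fold. Of 60 values under the pseudocounts and scalings, 14 moved by more than 1.5-fold. All 14 were with a pseudocount, and 10 of them belonged to the genes with a 0. With 5 FPKM, pfu_aug2.0_1550.1_01699 came to -0.79 for Rel over GFP dsRNA and BGI_novel_G000545 to -0.82 for IκB over GFP dsRNA, short of 2-fold. No replicate could be left out, and no paired analysis was possible because each group has 1 library. With read depth unknown, a 0 in the table does not show absence.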
